A study of Homo sapiens with 2 samples.

Results

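Before a cell divides it copies its DNA once, and the 50 genes described here encode the proteins that prepare the starting points of copying and carry it out. In G1 the origin recognition complex (ORC) and the loaders CDC6 and CDT1 place the ring-shaped MCM helicase on origins, a step called licensing, which geminin (GMNN) blocks once S phase has begun. The kinase CDC7 with its activator DBF4, together with CDC45, the GINS complex and MCM10, then turns the helicase on. DNA polymerase alpha with primase makes primers, polymerases epsilon and delta extend them on the sliding clamp PCNA, which replication factor C (RFC) loads, and RPA, FEN1, LIG1 and chromatin assembly factor 1 protect, join and package the new strands. Many of these genes are transcribed at the G1/S transition under E2F factors, and MYC is a transcription factor known to drive growth and cell cycle entry.

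The genes were taken by name from a list of replication proteins. No measured value enters that rule, but the list was drawn up with earlier results of these data known. All 50 had a probe set naming them alone, out of 19775 genes with such a probe set on the array, and all 50 had a signal above 50 in both arrays. Expression was compared between 2 arrays of HT-29, a human colorectal adenocarcinoma cell line: 1 of cells given an siRNA pool against MYC and 1 control. For the control, the protocol names a pool of non-targeting siRNA while the treatment field reads None, and it is called control siRNA here. Both siRNA pools were applied at 20 nM by reverse transfection for 24 h, and the cells were used after 48 h. With 1 array per condition there is no replicate, so no difference below has a replicate check, no p-value was computed, and "lower" and "higher" describe these 2 arrays only.

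The signal of MYC itself was 1963 in the control array and 1639.9 in the other, a log2 ratio of -0.26 on its only single-gene probe set. This placed MYC 1929th from the lowest of the 8917 genes above 50 in at least 1 array, so the mRNA signal ran in the direction of the label by a small amount. Of 12 colon epithelial markers, 9 were above 50 in at least 1 array, and CDX2, CDX1 and GPA33 were at or under 50 in both arrays. CDH17 was above 50 only with MYC siRNA (25.7 and 55.0). Signals summed over all 12 were 36373 in control and 42291 in MYC siRNA. Of 6 fibroblast markers only COL1A1 was above 50 (94.7 and 78.9), by 1 of its 5 probe sets. The 4 endothelial markers were all at or under 50, and of 4 measured leukocyte markers only LYZ, which encodes lysozyme, was above 50.

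The replication genes were mostly a little lower with MYC siRNA. Of the 50 genes 43 were lower and 7 were higher, against 46.5% of all 8917 genes lower. The median log2 ratio, always taken as MYC siRNA divided by control, was -0.22, or 1.17-fold lower, with quartiles of -0.36 and -0.10, whereas the median of all genes was 0.03. Only POLD2 and TIPIN were lower by at least 1.5-fold, 2 of 50 beside 5.72% of all genes, and no replication gene was higher by that much, beside 10.4% of all genes. None reached the 2-fold change by which the study defined its differentially expressed genes, which 0.695% of all genes passed downward and 2.73% upward. The difference was spread over many genes and was under 1.5-fold in all but POLD2 and TIPIN. From RNA of whole cultures, fewer cells in S phase and less RNA of these genes per cell cannot be told apart.

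**Figure D1:**
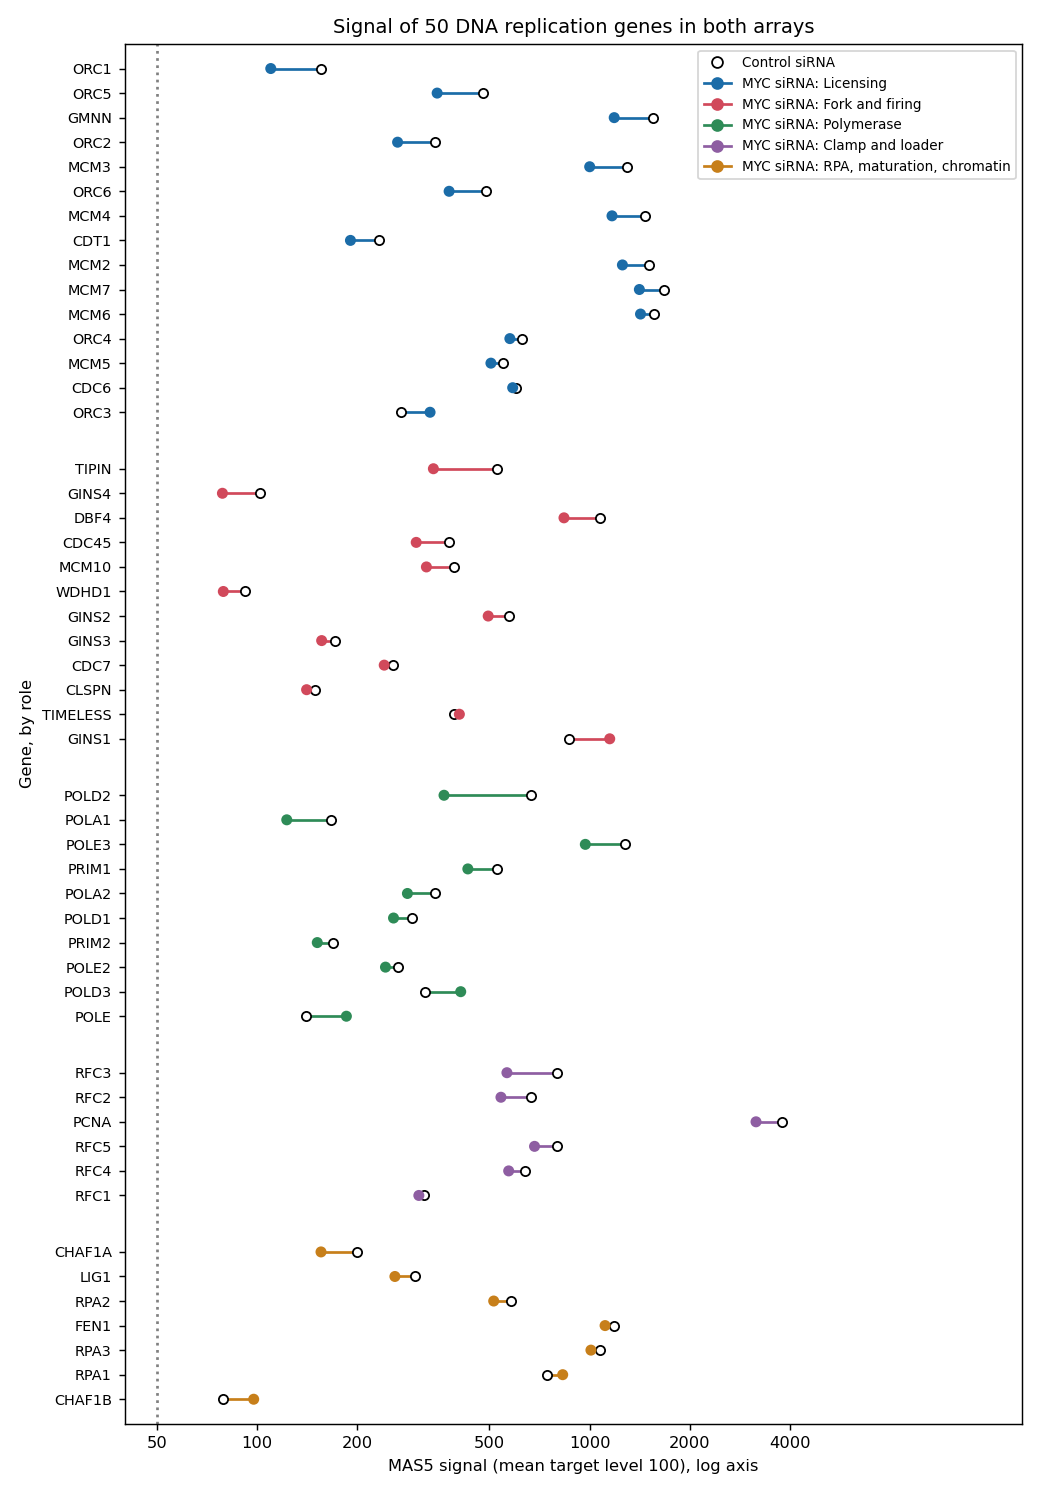
MAS5 signal (x axis, log scale) of each of the 50 replication genes (y axis, by role, each role ordered by log2 ratio) with control siRNA (open circles) and MYC siRNA (filled circles), 1 array each; the dotted line marks a signal of 50. The filled circle lies left of the open one in 43 genes, and the longest lines are those of POLD2 and TIPIN.

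The only error that can be read inside these arrays is the disagreement between probe sets of the same gene. Log2 ratios of probe sets for 1 gene had an SD of 0.29 in dim, 0.23 in middle and 0.20 in bright genes (equal classes by mean signal, divided at 155 and 436). How far cultures or arrays vary is not part of that SD. Of the 50 replication genes, 19 lay within 1 such SD of 0, beside 4082 of all 8917 genes. Lower by more than 2 SD were 3 genes (POLD2, TIPIN and RFC3), beside 10.0% of all genes, and higher by more than 2 SD was GINS1 alone, beside 14.2%. The share of single genes that stand out was thus no larger than the background in either direction. Just inside the limit were POLE3 at -0.40 and GMNN at -0.39, both bright genes, and ORC5 at -0.45, a middle gene. GINS1, a bright gene with 1 probe set, was just outside the limit of 0.400 at 0.409. Its lowest value under other processing settings was 0.375.

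Of the 50 genes, 18 had 2 or more probe sets above 50. In 13 of these every probe set was lower, and in 1 (RPA1) both were above 0, at 0.16 and 0.01, the latter nearly equal. In MCM5 and RFC1 a probe set lay within 0.005 of 0, and in GINS3 and RFC5 probe sets lay on both sides of 0. The median range of the log2 ratio over the probe sets of these 18 genes was 0.10. Such agreement was not counted over all genes, so these counts have no background share beside them. The other 32 genes, POLD2 and TIPIN among them, rest on a single probe set.

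**Figure D2:**
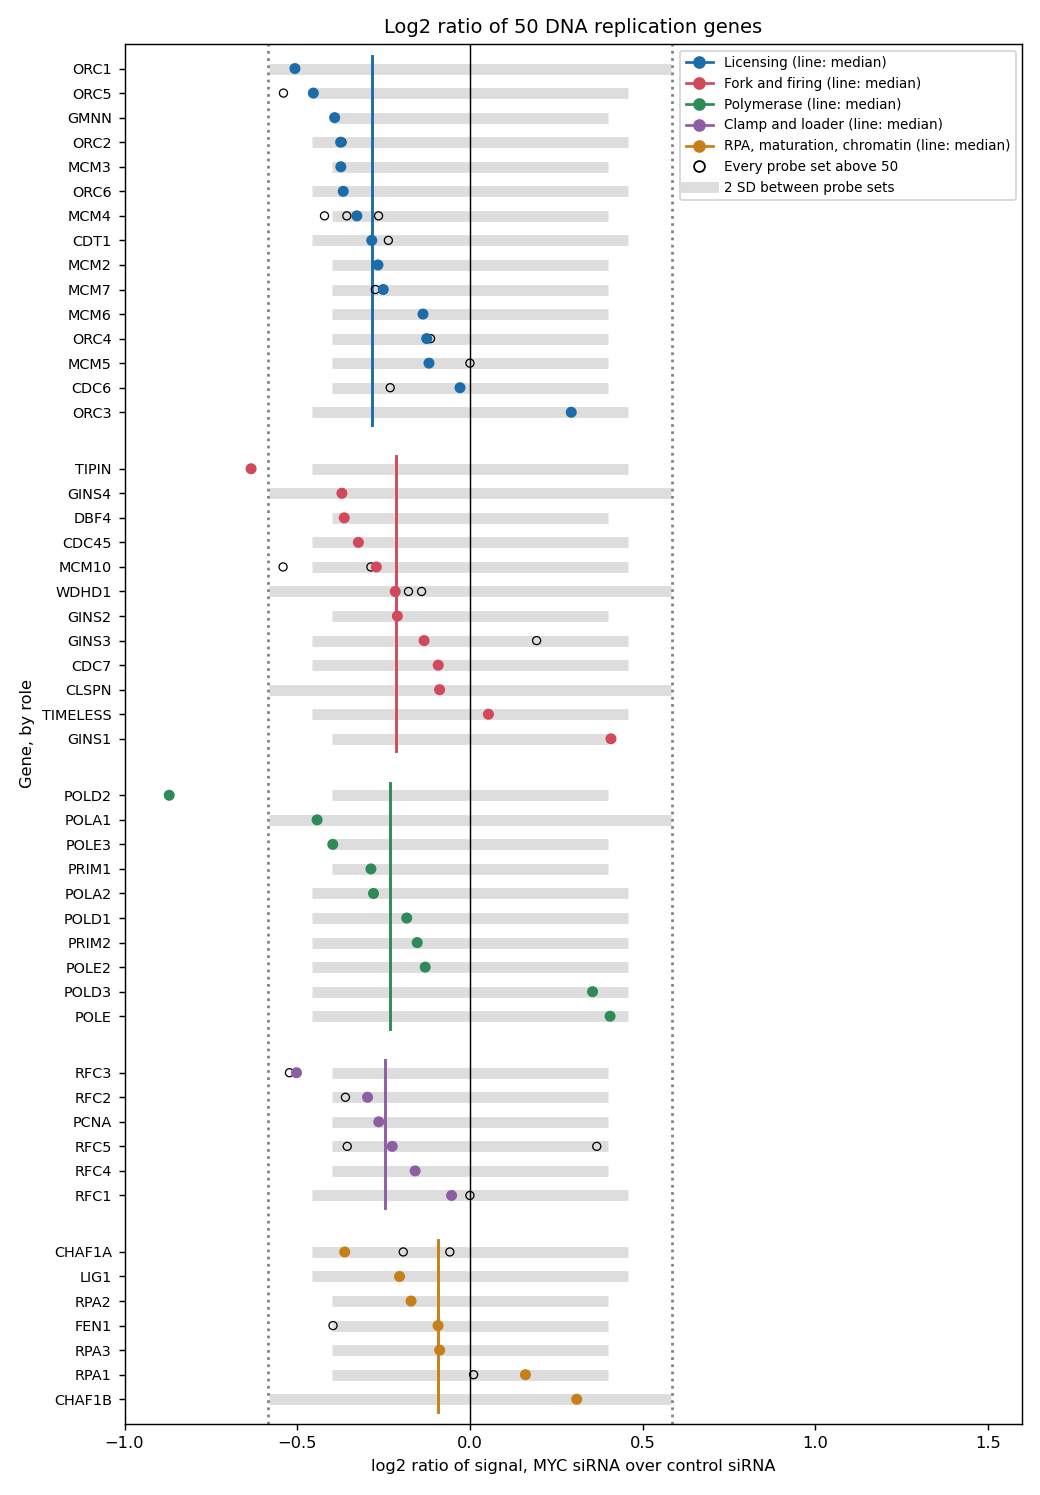
Log2 ratio (x axis, MYC siRNA divided by control) for the 50 replication genes (y axis, by role), with the probe set used (filled), any other probe set above 50 (open circles) and a range of 2 SD as found between probe sets in genes of that brightness class (grey bars). Coloured lines are role medians and dotted lines mark 1.5-fold; POLD2 (-0.87) and TIPIN (-0.63) lie beyond the left dotted line and no gene lies beyond the right one.

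The ratio of all genes depended on the signal, so the replication genes were also set beside genes of like brightness. Over 5 equal groups of genes from dim to bright, the median log2 ratio of all genes went from 0.15 to 0.09, 0.04, -0.01 and -0.10. That of the replication genes was -0.22, -0.15, -0.19, -0.22 and -0.26 in the same groups (3, 7, 10, 17 and 13 genes). In each group the replication genes had the lower median, and 41 of the 50 genes lay below the median of all genes of their own group. The smallest gap was in the brightest group, where 9 of 13 genes lay below it. After loess on mean signal the median of the 50 genes was -0.21 and after quantile normalization it was -0.21, with 43 genes lower in both.

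**Figure D3:**
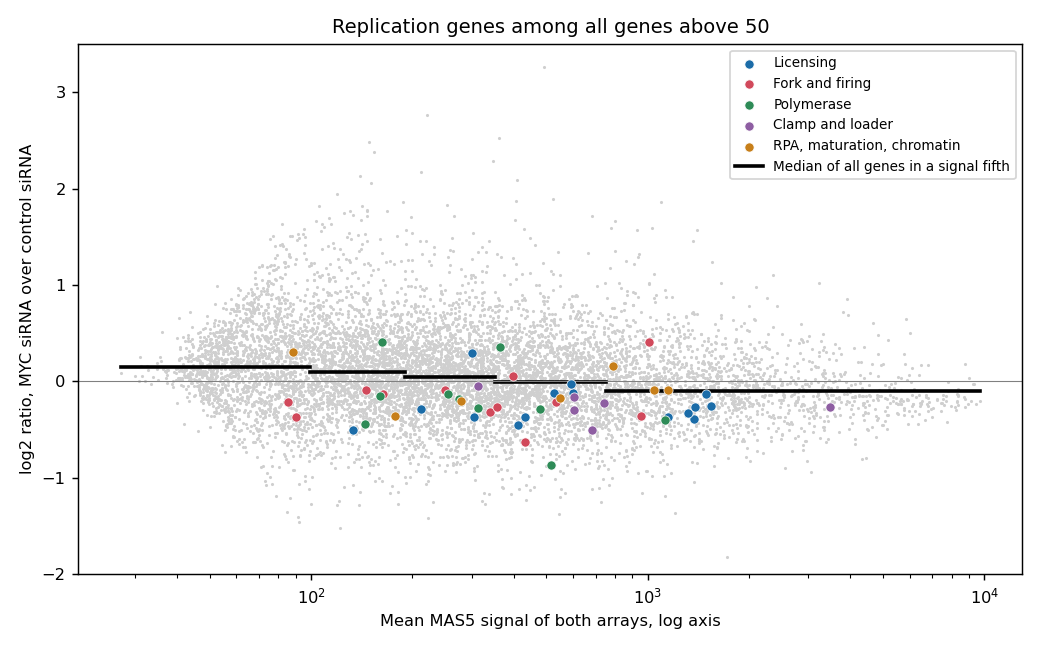
Log2 ratio (y axis, MYC siRNA divided by control) against the mean signal of both arrays (x axis, log scale) for the 8917 genes above 50 (grey) and the 50 replication genes (coloured by role). Black bars are medians of all genes in 5 equal signal groups, from 0.15 in the dimmest to -0.10 in the brightest; 41 coloured points lie below the bar of their group.

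What the genes share beyond their names was looked for in RefSeq promoter windows of the GRCh38.p14 build, which run from 250 bases before to 50 bases after a start site. Windows matched 44 of the 50 genes (57 windows, since some genes have several start sites), and GINS4, MCM4, MCM5, POLD3, RPA2 and RPA3 had none. An E2F motif, searched on both strands as TTTCCCGC, TTTGGCGC, TTTGGCGG or TTTCGCGC, was in 25 of the 57 windows (43.9%), against 3.35% of all 35116 windows and 5.53% of the 10885 windows of genes above 50. Base composition was not matched between these sets. The E-box CACGTG, the form that MYC with MAX is known to bind, was in 9 windows (15.8%), against 7.26% of all windows and 10.0% of those of genes above 50. The CCAAT box, searched on both strands, was in 29 windows (50.9%), against 34.6% and 35.2%. In 1 window a CCAAT box overlapped an E2F match, and an E-box overlapped neither motif in any window of these genes.

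The medians of replication genes with and without a motif lay within 0.1 of each other. The median log2 ratio was -0.25 in the 25 genes with an E2F motif (22 lower) and -0.22 in the 19 without (16 lower). It was -0.25 in the 9 genes with an E-box (7 lower) and -0.22 in the 35 without (31 lower). For the CCAAT box it was -0.26 in the 25 genes with it, of which 20 were lower, and -0.20 in the 19 without, of which 18 were lower. Among all genes above 50 with a window, the medians were -0.01 with and 0.04 without an E2F motif, -0.03 with and 0.04 without an E-box, and 0.03 both with and without a CCAAT box. By role, 8 of 13 licensing, 8 of 11 fork, 4 of 9 polymerase, 3 of 6 clamp and 2 of 5 maturation genes had an E2F motif. A match is a run of letters and not a shown binding site. The stretches that follow, each 60 bases long, upstream of a start site and written 5′ to 3′ on the strand of the gene, show an E2F match in capitals in genes that were lower (TIPIN, RFC3, POLA1), nearly equal (CDC6) and higher (ORC3, POLE) with MYC siRNA, so that the same letters can be seen on both sides of 0.
TIPIN, chr15:66356714-66356773, minus strand, with overlapping matches of both strands: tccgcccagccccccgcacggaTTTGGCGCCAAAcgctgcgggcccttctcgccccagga
RFC3, chr13:33818068-33818127, plus strand: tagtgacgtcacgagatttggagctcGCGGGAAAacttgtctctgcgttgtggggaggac
POLA1, chrX:24693755-24693814, plus strand: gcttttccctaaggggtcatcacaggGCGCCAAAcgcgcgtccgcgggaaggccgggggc
CDC6, chr17:40287819-40287878, plus strand: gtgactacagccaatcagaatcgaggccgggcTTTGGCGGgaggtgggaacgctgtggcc
ORC3, chr6:87590075-87590134, plus strand: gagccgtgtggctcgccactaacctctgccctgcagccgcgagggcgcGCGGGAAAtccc
POLE, chr12:132687343-132687402, minus strand: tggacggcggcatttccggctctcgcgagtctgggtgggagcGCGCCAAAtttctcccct

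The next stretches show the E-box in capitals in genes that were lower (CHAF1A, MCM2) and slightly higher (RPA1) with MYC siRNA. The genes CHAF1A and MCM2 also had an E2F match in their windows, and RPA1 had none. POLE3, the E-box gene with the lowest log2 ratio (-0.40), had no E2F match and is not shown. The log2 ratio of RPA1 was 0.16, within 1 SD between probe sets of 0. POLD2, the gene with the lowest log2 ratio, had no match to the E-box or the E2F motif in its window, and a CCAAT box of that window is shown in capitals as read on the opposite strand.
CHAF1A, chr19:4402554-4402613, plus strand: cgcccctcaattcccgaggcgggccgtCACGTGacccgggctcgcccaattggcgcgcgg
MCM2, chr3:127598351-127598410, plus strand: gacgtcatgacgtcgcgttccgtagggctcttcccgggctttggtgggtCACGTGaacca
RPA1, chr17:1829880-1829939, plus strand: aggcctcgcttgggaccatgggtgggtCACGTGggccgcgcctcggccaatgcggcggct
POLD2, chr7:44123585-44123644, minus strand: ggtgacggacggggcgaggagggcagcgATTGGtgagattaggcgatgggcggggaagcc

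The 15 licensing genes had the lowest median of the roles, -0.28, with 14 lower and 1 higher. After loess on mean signal it was -0.26, little below the -0.25 of polymerase and the -0.24 of fork genes. ORC1, the large ATP-binding subunit of the origin recognition complex, was at 156 in the control and 110.1 with MYC siRNA (log2 ratio -0.51, 1.42-fold lower). ORC5 was at 477 and 348 (-0.45), and a further probe set gave -0.54. ORC2 (343 and 265) and ORC6 (488 and 378) both had a log2 ratio of -0.37, and both probe sets of ORC2 gave this value. The other 2 subunits had log2 ratios above those of these 4. ORC4 was at 628 and 576 (-0.13), and ORC3 was higher, at 270.5 and 331 (0.29), by a single probe set. The median of the 6 subunits was -0.37, the lowest of the complexes with more than 2 members.

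All 6 subunits of the MCM helicase, the motor that unwinds DNA at the fork, were lower and within a narrow band. MCM3 had the lowest log2 ratio at 1296 and 1001 (-0.37), and MCM4 followed at 1465 and 1168 (-0.33), with its other 3 probe sets above 50 between -0.42 and -0.26. MCM2 was at 1509 and 1255 (-0.27) and MCM7 at 1679 and 1411 (-0.25). MCM6 was at 1563 and 1422 (-0.14) and MCM5 at 548 and 505 (-0.12), and in MCM5 a further probe set gave 0.00. The lowest and the highest subunit lay 0.26 apart. The SD between probe sets of a bright gene was 0.20, which describes a single value and not a range over 6. Of the loading factors, GMNN was at 1555 and 1186 (-0.39) and CDT1 at 233 and 191 (-0.28, with -0.24 in a further probe set). The loader and its inhibitor were thus lower by amounts that differ by less than 1 SD between probe sets. CDC6, the ATPase that joins ORC to load the helicase, was nearly equal at 599 and 587 (-0.03), although a probe set of almost the same signal gave -0.23.

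The 12 genes of origin firing and fork progression had a median of -0.21, with 10 lower and 2 higher, and the median was -0.11 when the floor was 100 and -0.088 by averaged linear ratios. TIPIN, which with TIMELESS steadies the fork and passes on checkpoint signals, was at 526 and 339 (log2 ratio -0.63, 1.55-fold lower), 375th from the lowest of the 8917 genes. Its partner TIMELESS was at 391 and 406 (0.05). The partners lay 0.69 apart, each on a single probe set above 50. CLSPN, the checkpoint adaptor claspin, was at 149.9 and 141 (-0.09), and WDHD1, which ties polymerase alpha to the helicase, was at 92.1 and 79.3 (-0.22), its 3 probe sets lying between -0.22 and -0.14.

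CDC45 and GINS complete the active helicase. CDC45 was at 377 and 301 (-0.32). Of the GINS subunits, GINS4 was at 102 and 78.8 (-0.37), GINS2 at 573 and 496 (-0.21) and GINS3 at 172 and 157 (-0.13), while a dimmer probe set of GINS3 gave 0.19. GINS1 differed in direction, at 866 and 1149 (0.41, 1.33-fold higher), and was the highest of all 50 genes. DBF4, the activator of the CDC7 kinase, was at 1078 and 838 (-0.36), and CDC7 itself was at 257 and 241 (-0.09). MCM10, needed for the helicase to start moving, was at 390.0 and 323 (-0.27), and its other probe sets gave -0.29 and -0.54.

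The 10 polymerase and primase genes held both the lowest gene and some of the highest, with a median of -0.23, 8 lower and 2 higher. POLD2, the accessory subunit that holds polymerase delta together, was at 668 and 365 (log2 ratio -0.87, 1.83-fold lower), 117th from the lowest of the 8917 genes. POLD1, the catalytic subunit, was at 292 and 257 (-0.18), whereas POLD3 was at 320.4 and 409.8 (0.36, 1.28-fold higher). The 3 subunits thus spanned 1.23 on the log2 scale, the widest range of any complex here. POLD4, the smallest subunit and a gene of the related list below, was higher still, at 238 and 510 (1.10, 2.14-fold), past the 2-fold rule. Each of the 4 subunits rests on 1 probe set above 50.

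Polymerase epsilon, which is known for leading strand synthesis, also had subunits on both sides of 0. Its catalytic subunit POLE was at 140.2 and 186 (0.41, 1.32-fold higher), POLE2 was at 266 and 243 (-0.13) and POLE3 at 1278 and 971 (-0.40). The catalytic subunit and POLE3 lay 0.80 apart, each on a single probe set, but none of these 3 subunits lay beyond 2 SD between probe sets. Polymerase alpha and primase, which start each strand, were lower in all 4 subunits. POLA1 was at 167 and 123 (-0.44), POLA2 at 344 and 283 (-0.28), PRIM1 at 525 and 431 (-0.29) and PRIM2 at 169 and 152 (-0.15). These 4 spanned 0.29.

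**Figure D4:**
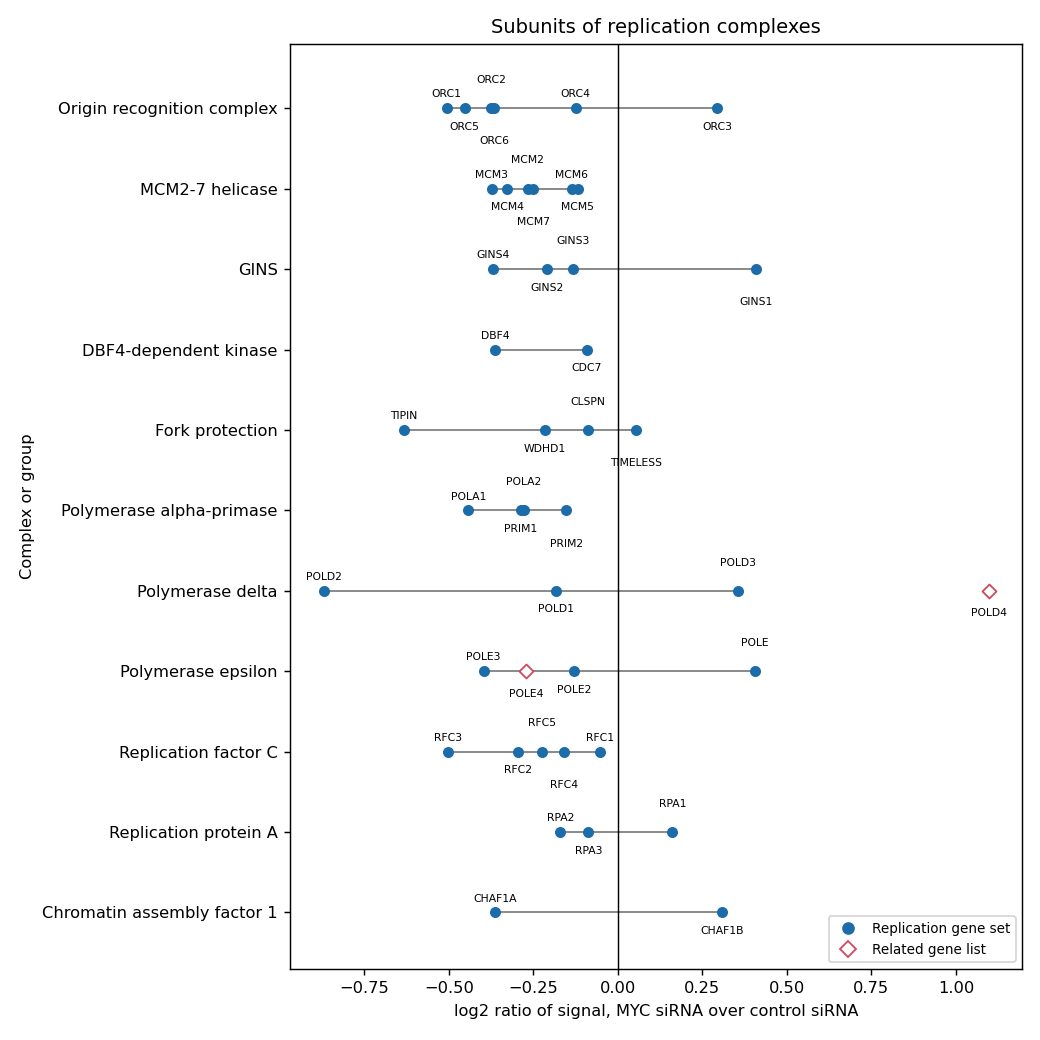
Log2 ratio (x axis, MYC siRNA divided by control) for each subunit (blue points) of 11 replication complexes or groups (y axis), with POLD4 and POLE4 of the related list as open diamonds; grey lines join the lowest and highest subunit. The MCM helicase spans 0.26 and polymerase delta spans 1.23, from POLD2 at -0.87 to POLD3 at 0.36.

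The clamp and its loader were lower in all 6 genes, with a median of -0.24. PCNA, the sliding clamp and the gene with the largest signals of the set, was at 3799 and 3164 (-0.26), and its log2 ratio was -0.14 after loess on mean signal. RFC3 was at 799 and 564 (-0.50, 1.42-fold lower), with -0.52 in a further probe set, so both of its probe sets place it beyond 2 SD. RFC2 was at 665 and 541 (-0.30), with -0.36 in a further probe set. RFC5 was at 798 and 683 (-0.22), but its probe sets disagreed, at -0.36 and 0.37 in the others. RFC4 was at 638 and 571 (-0.16), and RFC1, the large subunit, was at 318 and 307 (-0.05), with 0.00 in a further probe set. RFC3 and RFC1, the ends of this complex, lay 0.45 apart.

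The 7 genes of single-strand binding, strand joining and chromatin assembly had a median of -0.09, with 5 lower and 2 higher. This was the role median nearest to 0, but it ranged from -0.17 with log2 ratios averaged over probe sets to -0.031 after loess, and with averaged linear ratios it was -0.15 and the fork genes at -0.088 were nearer to 0. Of the RPA subunits, which coat single-stranded DNA, RPA1 was at 742 and 830.1 (0.16), with 0.01 in a further probe set. RPA2 was at 579 and 515 (-0.17) and RPA3 at 1072 and 1009 (-0.09). All 3 were within 1 SD between probe sets of 0. FEN1, the nuclease that trims Okazaki fragments, was at 1187 and 1113 (-0.09), while its other probe set gave -0.40, and LIG1, the ligase that seals them, was at 299 and 259.9 (-0.20). The 2 subunits of chromatin assembly factor 1, which deposits histones behind the fork, lay on opposite sides of 0. CHAF1A was at 200.3 and 156 (-0.36), with -0.19 and -0.06 in its other probe sets, and CHAF1B was at 78.9 and 97.8 (0.31), dim values for which 1 SD between probe sets is 0.29.

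A further list held 62 genes that work beside these 50, of which 58 had a probe set of their own and 56 were above 50 (RPA4 and MTBP were not). Of the 56 genes 37 were lower and 19 higher, with a median log2 ratio of -0.12, between the replication genes at -0.22 and all genes at 0.03. That median was -0.044 with a floor of 100 and -0.047 without probe sets marked as binding several transcripts. Past 1.5-fold were 3 lower genes (beside 5.72% of all genes) and 2 higher ones (beside 10.4%), no larger a share than among all genes. Past 2 SD between probe sets, 9 of the 56 were lower, a larger share than the 10.0% of all genes. Of these 9, DSCC1 (-0.403, limit 0.400) and ASF1A (-0.459, limit 0.458) only just passed. The 10.0% covers genes of all signals and not only those of like brightness. In the other direction 2 were higher by over 2 SD, beside 14.2% of all genes. Among 12 other subunits and partners of these complexes 8 were lower (median -0.10). MCMBP, which binds the MCM helicase, had the lowest log2 ratio of those reaching a signal of 100, at 1164 and 800.1 (-0.54), and POLD4 was the highest.

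Among 9 genes of origin firing and the fork checkpoint 6 were lower (median -0.14), from DONSON, a firing and fork factor, at 535 and 407 (-0.39) to KAT7, a histone acetyltransferase at origins, at 157 and 184 (0.23). Among 11 genes that limit licensing by protein destruction or drive S phase entry through CDK2, 7 were lower (median -0.17). CDC25A, the phosphatase that activates CDK2, was at 197 and 111 (-0.83, 1.77-fold lower), but its dimmer probe sets gave -0.29 and -0.08. The cyclins E differed in direction, CCNE2 being at 323 and 520 (0.69, 1.61-fold higher), with 0.64 in a further probe set, and CCNE1 at 216 and 158 (-0.45). CCNE1 is named here after its value was seen.

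Among 14 genes of primer removal, DNA topology and chromatin at the fork 10 were lower (median -0.16). The ends of this list were DNMT1, which copies DNA methylation to the new strand, at 792 and 528 (-0.59), and RNASEH2A, a nuclease that removes RNA from primers, at 352 and 459 (0.38). The 10 genes of deoxynucleotide supply were the nearest to all genes, with 6 lower and a median of -0.04. DCTPP1, which clears dCTP and modified nucleotides, was at 1110.4 and 714 (-0.64, 1.56-fold lower), and DCK, the salvage kinase of deoxycytidine, was at 611 and 728 (0.25).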

How the data were processed

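The 2 arrays (GeneChip Human Genome U133 Plus 2.0) were taken as deposited. The authors computed the intensity values, MAS5 signals on a linear scale, in affy 1.40.0, using an array target of 100. Leaving out 2% of the 54675 probe sets at each end, both arrays had a mean of 100, and 16074 and 16571 probe sets exceeded 50 with control and MYC siRNA. The number of arrays, 1 per condition, limits the precision.

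Signals under 50 were set to 50, as in the study's methods, and MYC siRNA was divided by control on the log2 scale. Where several of the 41097 probe sets that name 1 gene in the platform annotation named the same one, the brightest by mean signal stood for it. Symbols were updated through gene IDs to RefSeq (19738 of 19775 genes found there). Genes at or under 50 in both arrays were given no ratio. The rule for genes named with both signals was MYC, replication genes past 1.5-fold, the 2 highest and 2 lowest of each role, those whose probe sets lie on both sides of 0, and related genes past 1.5-fold or at the ends of their list with a signal of at least 100. Signals of the other replication genes and the grouping into complexes were added after the values were seen. The genes and lists were chosen with earlier results of these data known. The calculation was checked on simulated arrays. Python 3.11.15, numpy 2.4.6, pandas 2.3.3, statsmodels 0.14.6 and matplotlib 3.10.9 were used.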

Additional observations from a re-analysis of the deposited data

How the results depend on the processing

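Tried were floors at 25 and at 100, no floor with 1 added, centring on the median, quantile normalization, loess (span 0.3), leaving out probe sets marked as binding several transcripts, a minimum of 100 in the brighter array, and averaging log2 or linear ratios over probe sets. Under these 10 alternatives the median of the replication genes stayed between -0.25 and -0.17, the number lower between 42 and 43 of 50, and the number past 1.5-fold was 2, or 3 after loess, where ORC1 was at -0.60. Without the multi-transcript probe sets 30 of 35 measured genes were lower, and at a minimum of 100 it was 42 of 48. The fork genes' median was -0.11 when the floor was 100 and -0.088 by averaged linear ratios, which take probe sets under 50 in both arrays as equal. Of 483 single-gene values 480 stayed within their SD between probe sets; the others were GINS4 and CHAF1B at the floor of 100 (-0.03 and 0.00) and MCM10 without the multi-transcript probe sets (-0.54). MCM5 and GINS3 changed sign under an alternative (highest values 0.00 and 0.04), and WDHD1 reached 0 at the floor of 100. Log2 ratios near 0 cannot be told from equal signals with 1 array per condition. No paired analysis was possible because each condition has a single array.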
